A study of Mus musculus with 7 samples.

Results

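Tenascins and fibronectin are matrix ligands, and integrins are the cell-surface receptors that hold them. The transcripts of 6 such genes were examined in the soleus of mice without tenascin-C: the ligand genes Tnc, Tnxb and Fn1, and the integrin subunit genes Itgb1, Itgav and Itga8. They were chosen by gene symbol in the platform's probe annotation, out of 203 named genes on the array. They are read by 7 of its 223 probes, because Fn1 has 2 probes, 9D and 4D, which were kept apart. The samples were soleus muscles, a slow postural hindlimb muscle, from 7 Tnc-deficient mice on the 129/SV background that were cage controls. The series calls the samples biological replicates. There is 1 group, every animal in it carries the Tnc deficiency, and no wild-type soleus was analysed here, so no effect of losing Tnc was estimated. The labels used here state no age, no sex and no structure for the targeted allele.

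Tenascin-C is a large, multi-armed glycoprotein that is scarce in resting adult muscle, appears where muscle is loaded, injured or rebuilt, and weakens the grip of cells on fibronectin. Tenascin-X, from Tnxb, is its relative in mature connective tissue and associates with collagen fibrils. Fibronectin forms the fibrils that cells pull on. An integrin is a pair of an alpha and a beta chain: the beta-1 chain from Itgb1 pairs with many alpha chains, in muscle fibres mostly in laminin receptors. The alpha-V chain from Itgav pairs with several beta chains, and the alpha-8 chain from Itga8 pairs with beta-1. Receptors with either alpha chain bind fibronectin and tenascin-C.

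Each value is the brightness of 1 spot of radioactively labelled cDNA, given as percent of the summed signal of its array. Probes differ in labelling and binding, so their order by signal is no order of transcript numbers, and each probe was set against the other signals of its own array. The floor of an array is the 10th percentile of its 223 probes, and a signal over 3 times the floor is called clear. Floors ran from 0.04% to 0.15% and array medians from 0.07% to 0.18%. Signals were recorded in steps of 0.01%, so that a floor of 0.04% is only 4 steps high. Replicate 3 stood apart from the other 6 arrays: its floor was the highest, its probe for 28S rRNA read 0.37% against 3.48% to 49.7%, and results are given with and without it. The 7 muscle fibre probes of the marker list, such as Myh7 and Mb, together carried 23.2% to 31.5% on the 6 other arrays and all were clear there. In replicate 3 they summed to 2.25% and none was clear.

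Of the 4 ligand probes, only Tnxb was clear on any array. Tnc carried 0.08%, 0.09%, 0.17%, 0.18%, 0.15%, 0.15% and 0.11% of the array sum in replicates 1 to 7. The lowest readings were those of replicates 1 and 2 and the highest that of replicate 4, and the mean was 0.133% ± 0.039 (SD, n = 7). Over the floor these signals were 1.6, 2.25, 1.13, 2.25, 1.88, 3 and 2.75 times, in the same order, and none was clear. The probe was nevertheless not among the dimmest of an array. It exceeded the array median on 6 of 7 arrays, and 55.0% to 68.0% of the other probes were dimmer on the arrays other than replicate 3, where the share was 33.3%. No source used here says whether the probe lies in a part of the gene that these mice still transcribe, so the reading is not a measure of residual Tnc transcript.

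Tnxb, the tenascin of mature connective tissue, had the smallest log2 SD of the 7 probes over all 7 arrays on the deposited scale. It carried 0.14%, 0.15%, 0.17%, 0.17%, 0.14%, 0.18% and 0.12% in replicates 1 to 7, with a mean of 0.153% ± 0.021 (SD, n = 7). Its highest reading was 1.5 times its lowest. It was clear in replicates 2 and 6, at 3.75 and 3.6 times the floor, and lay at exactly 3 times the floor in replicate 7. In replicate 3 it was at 1.13 times the floor. The steadiness therefore includes 1 reading near the floor of a brighter background. Taken over the floor of each array, the log2 SD of Tnxb was 0.62, against 0.21 on the deposited scale.

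The 2 Fn1 probes gave different pictures of fibronectin. Probe 9D carried 0.10%, 0.12%, 0.16%, 0.12%, 0.14%, 0.14% and 0.12% in replicates 1 to 7, which was 1.07 to 3 times the floor. It reached exactly 3 times the floor in replicates 2 and 7 and was clear on none. Probe 4D carried 0.04%, 0.04%, 0.16%, 0.07%, 0.08%, 0.06% and 0.04%, at 0.8 to 1.2 times the floor, and was above the floor on 2 of 7 arrays. Its readings lay at the background throughout, and the highest, in replicate 3, sits beside that array's floor of 0.15%. On the 6 other arrays the log2 signals of the 2 probes had r = 0.68 (exact two-sided permutation p = 0.20) and rho = 0.69 (exact permutation p = 0.20, n = 6). With arrays centred on their medians, r was -0.03.

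Among the receptors, Itgb1 was the one member that was clear on every array. Its signal was 0.36%, 0.56%, 1.28%, 0.38%, 0.27%, 0.43% and 0.30% in replicates 1 to 7. The mean was 0.511% ± 0.352 (SD, n = 7), and 0.383% ± 0.104 without replicate 3 (SD, n = 6). It stood at 7.2, 14, 8.53, 4.75, 3.38, 8.6 and 7.5 times the floor, a geometric mean of 7.08 times. Replicate 2 was highest over the floor and replicate 5 lowest, and no reading overlapped the floor.

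Replicate 3 had the brightest Itgb1 signal, 2.29 times the next highest array, and 94.6% of the other probes on that array were dimmer. On the other 6 arrays that share was 79.7% to 90.5%. Set against the floor, however, replicate 3 lay within the range of the other arrays. The 5 endothelial markers summed to 9.50% in replicate 3 and to 0.45% to 1.27% elsewhere. Clear in replicate 3 were 2 of the 5, Pecam1 at 8.36% and Cdh5 at 0.60%, while Tek and Kdr read 0.16%, near the floor. The single fibroblast marker, Pdgfra, read 0.17% there, also near the floor, and 0.09% to 0.12% elsewhere. The satellite cell markers Myf5 and Myod1 summed to 3.26% there and to 0.09% to 0.20% elsewhere, with Myf5 at the floor. The part of these markers in the Itgb1 reading was not tested. In whole muscle RNA, fewer cells of a type and less RNA per cell cannot be told apart.

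The alpha chains were much closer to background. Itgav carried 0.06%, 0.07%, 0.17%, 0.10%, 0.10%, 0.08% and 0.06% in replicates 1 to 7, or 1.13 to 1.75 times the floor. It was above the floor on all 7 arrays, clear on none, and above the array median on none. Its order over the arrays was close to that of the array medians.

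Itga8 had the largest log2 SD between the mice of the 7 probes on the deposited scale. With quantile normalization its SD was 0.64 and that of Itgb1 1.06, and with median-centring they were 0.65 and 0.63. Itga8 carried 0.05%, 0.05%, 0.30%, 0.27%, 0.15%, 0.19% and 0.08% in replicates 1 to 7, so that the highest reading was 6 times the lowest. It was clear in replicates 4 and 6, at 3.38 and 3.8 times the floor, at the floor in replicate 1, and at 1.25 times the floor in replicate 2. Replicates 5 and 7 lay between, at 1.88 and 2 times. The 28S rRNA probe, which lies outside the array sum, read 3.48% and 3.79% in replicates 1 and 2, and 49.7%, 27.9%, 26.6% and 24.1% in replicates 4 to 7. In replicate 3, where Itga8 was highest, the 28S rRNA probe was lowest, at 0.37%. The part of 28S rRNA in the Itga8 readings was not tested.

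**Figure D1:**
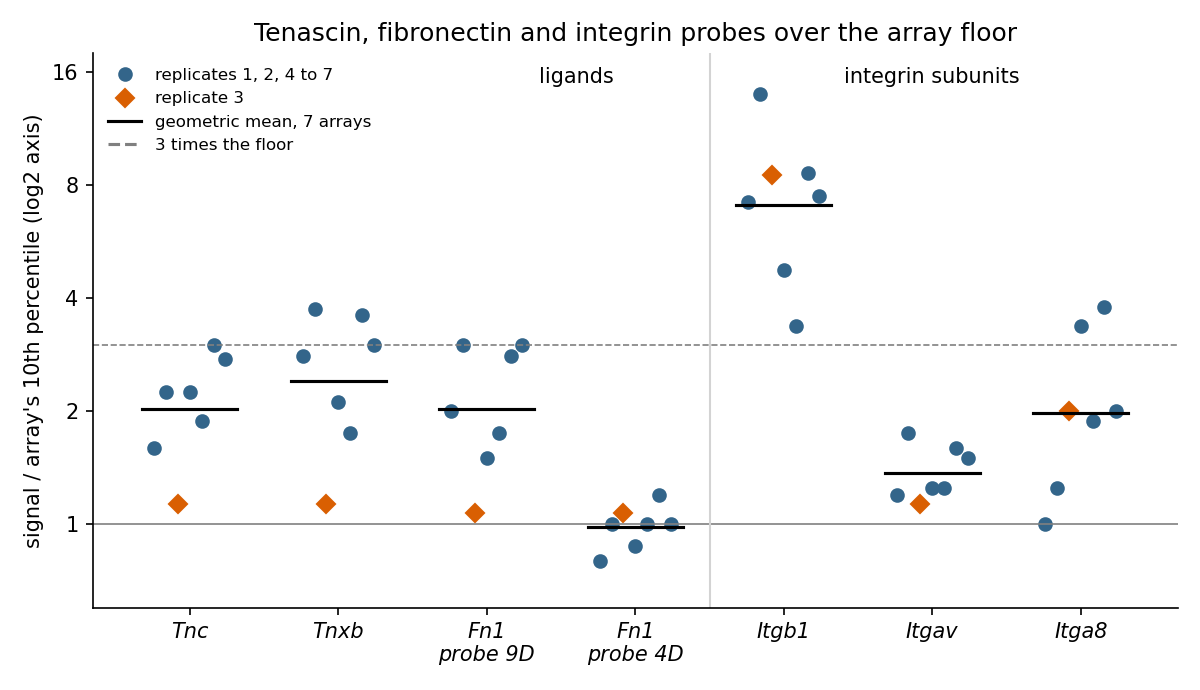
Signal of each of the 7 probes divided by the 10th percentile of the same array, on a log2 axis. Points are the 7 arrays, with replicate 3 as an orange diamond, bars are geometric means, and the dashed line marks 3 times the floor. All Itgb1 points lie above the dashed line, while Fn1 probe 4D and Itgav lie wholly below 2.

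Counted over the list, 1 of 7 probes, Itgb1, was clear on all 6 arrays other than replicate 3. Of all 223 probes, 17.0% were so. On all 7 arrays it was again 1 of 7, against 4.04% of all probes. On no array clear were 4 of 7 members, namely Tnc, both Fn1 probes and Itgav, against 57.0% of all probes. With 7 probes these shares give no reading about the list. The median member stood at 1.02 on the log2 scale over the floor, against 0.73 for the median of all probes.

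The recording steps limit these calls. Of the 49 member readings, 11 were clear, 7 of them Itgb1 and 4 from Tnxb and Itga8. All 11 would be clear wherever the true values lay within their rounding steps. Another 31 would not be clear in any case, and 7 could fall either way. Those 7 belong to Tnc in replicates 6 and 7, Tnxb in replicates 1 and 7, and Fn1 probe 9D in replicates 2, 6 and 7. For Tnc in replicate 6, at 0.15% over a floor of 0.05%, rounding alone allows 2.64 to 3.44 times the floor. With 3 times the floor itself counted as clear, a rule added after the data were seen, Tnc would be clear on 1 array, Tnxb on 3 and Fn1 probe 9D on 2. The call of no clear Tnc signal therefore rests on the readings of replicates 6 and 7.

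**Figure D2:**
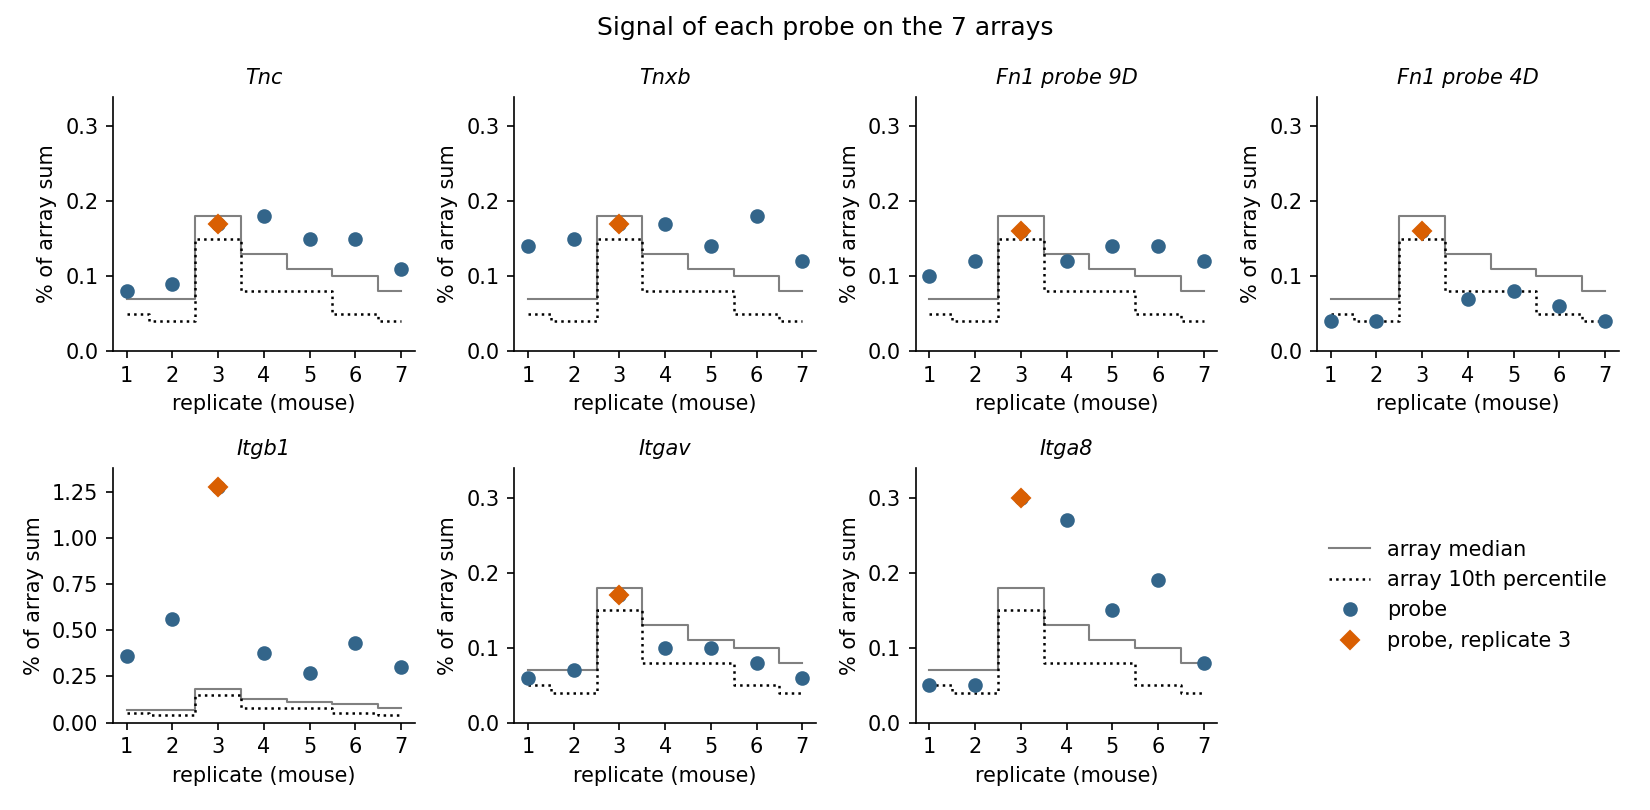
Signal of each probe in percent of the array sum for each of the 7 mice (points), with the array's median (grey line) and 10th percentile (dotted line). The Itgb1 panel has its own scale. Itgb1 lies far above both lines on each array, Fn1 probe 4D follows the dotted line, and Itga8 runs from the dotted line in replicate 1 to above the median in replicates 3 to 6.

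The spread between the mice was then compared with that of probes at a similar level. No mouse was read on a further array, so differences between mice and between arrays cannot be told apart. The test was limma's per-probe variance against the variance trend over all 223 probes, in a one-sided F test with Benjamini-Hochberg adjustment. Over 7 arrays it called 0 of the 7 members, and 0.00% of all probes. At an unadjusted p under 0.05 there were 17 of 223 probes and no member. Itga8 came nearest, with an SD of 1.09 on the log2 scale against 0.56 for the trend (limma adjusted p = 0.66). Without replicate 3 the test called 2.24% of all probes and again no member, with 22 probes under an unadjusted p of 0.05. Itga8 had an SD of 1.03 against 0.42 for the trend in that fit (limma adjusted p = 0.21), and was the 1 member among those 22.

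On the deposited scale the smallest SDs were those of Tnxb and Fn1 probe 9D, 0.21 and 0.22 against trend values of 0.49 and 0.55. The one-sided test looks for excess spread only, so low spread was not tested. Taken over the floor of each array, the log2 SDs of these probes were 0.62 and 0.57. Those of Fn1 probe 4D and Itgav were 0.19 and 0.24 on that scale. The SD of Tnc was 0.46, against 0.54 for the trend, with limma adjusted p = 0.89. For Itgb1 the SD fell from 0.76 to 0.38 when replicate 3 was left out. Over the list the median SD was 0.53, against 0.69 for all probes, and 0.38 against 0.44 without replicate 3. A change of scale altered which members looked steady. With each array centred on its median and replicate 3 left out, the SD of Tnc was 0.13 and that of Itgav 0.16, while that of Itgb1 was 0.61 and that of Tnxb 0.32. Relative to its array median, Tnc read 1.14, 1.29, 0.944, 1.38, 1.36, 1.5 and 1.38 times in replicates 1 to 7, so its signal moved largely with the middle of the array.

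Replicates 1 and 2 had nearly the same readings for most members. The sample title of replicate 1 carries another prefix code than those of the other arrays, which the labels used here do not explain. Of the 7 probes, 5 were at most 1 recording step apart, and Itga8 and Fn1 probe 4D were identical. Steps are coarse on signals this low, and for Itgav 1 step was a difference of 0.22 on the log2 scale. How many of all 223 probes were as close was not counted, so the 5 of 7 gives no reading about the list. Itgb1 differed most among the 7, with 0.36% and 0.56%, a difference of 0.64 on the log2 scale. Over all 223 probes the SD of this difference was 0.24, and 3 probes differed by more than Itgb1. With replicates 1 and 2 averaged as 1 sample, limma again called no member, and none had an unadjusted p under 0.05.

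Whether ligand and receptor signals moved together between mice was examined for all 21 pairs of the 7 probes over the 6 arrays other than replicate 3, each in an exact two-sided permutation test over 720 pairings. No pair passed after Benjamini-Hochberg adjustment over the 21, and 3 had an unadjusted p under 0.05. These were Tnc with Itga8, Fn1 probe 4D with Itgav, and Tnc with Itgav. For Tnc with Itgav r was 0.86 (exact permutation p = 0.039, adjusted p = 0.25). It was -0.41 with median-centring and 0.01 with quantile normalization. Tied readings raise the smallest p that a pair can reach in this test, as for Tnc with Itga8 below. The median r of the 21 pairs was 0.60, close to 0.64 for all pairs of probes on the array. Probes share the scale of their array, so a positive r is the common case here. The 6 arrays also divide into replicates 1 and 2 and replicates 4 to 7 by their 28S signal. With each probe taken as deviations from the mean of its part, over 48 pairings, r could be compared without the gap between the parts. With so few pairings and with tied readings, 11 of the 21 pairs could not reach a p under 0.05 there whatever the data, Tnc with Itga8 among them.

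Tnc and Itga8, a ligand and the alpha chain of one of its receptors, had the highest r. It was 0.99 (exact permutation p = 0.0056, adjusted p = 0.12, n = 6), and rho was 0.97 (exact permutation p = 0.0056, adjusted p = 0.12). Both probes were lowest in replicates 1 and 2, next lowest in replicate 7 and highest in replicate 4. Each probe had tied readings, and the 6 arrays already lay in the closest order possible for them. No smaller p could be reached, so over 6 arrays this pair could not pass the adjustment on its own. Leaving out replicates 1 and 2, whose Tnc signals lay farthest from its median, gave r = 0.98 over 4 arrays. Over all 7 arrays r was 0.98 (exact permutation p = 0.0016, adjusted p = 0.025), which passed. With median-centred arrays r was 0.80 over 6 arrays (exact permutation p = 0.044, adjusted p = 0.34) and 0.17 over 7. As deviations within the parts r was 0.96, where the smallest p possible for this pair is 0.083, and 0.34 after centring. Tnc was clear on no array and Itga8 on 2.

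Tnxb and Itgb1 moved together on another scale. On the deposited scale r was 0.53 (exact permutation p = 0.29, adjusted p = 0.44, n = 6) and rho 0.72 (exact permutation p = 0.12, adjusted p = 0.37). As multiples of the array median, Tnxb read 2, 2.14, 1.31, 1.27, 1.8 and 1.5 in replicates 1, 2, 4, 5, 6 and 7. Itgb1 read 5.14, 8, 2.92, 2.45, 4.3 and 3.75 times in the same order, and the 6 arrays had the same order for both probes. On that scale r was 0.95 (exact permutation p = 0.0014, adjusted p = 0.029) and rho 1 (exact permutation p = 0.0028, adjusted p = 0.058). Leaving out replicates 2 and 5, where Tnxb was highest and lowest, gave r = 0.99. As centred deviations within the parts r was 0.86 (exact permutation p = 0.042, adjusted p = 0.44). Replicate 3 did not follow, with Tnxb at 0.944 and Itgb1 at 7.11 times the median, and over all 7 arrays r was 0.24. Both multiples have the array median as divisor. Over the 6 arrays on that scale, the probes for Fgfr2 (r = 0.97) and Aldoa (r = 0.96) followed Itgb1 more closely than Tnxb did.

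**Figure D3:**
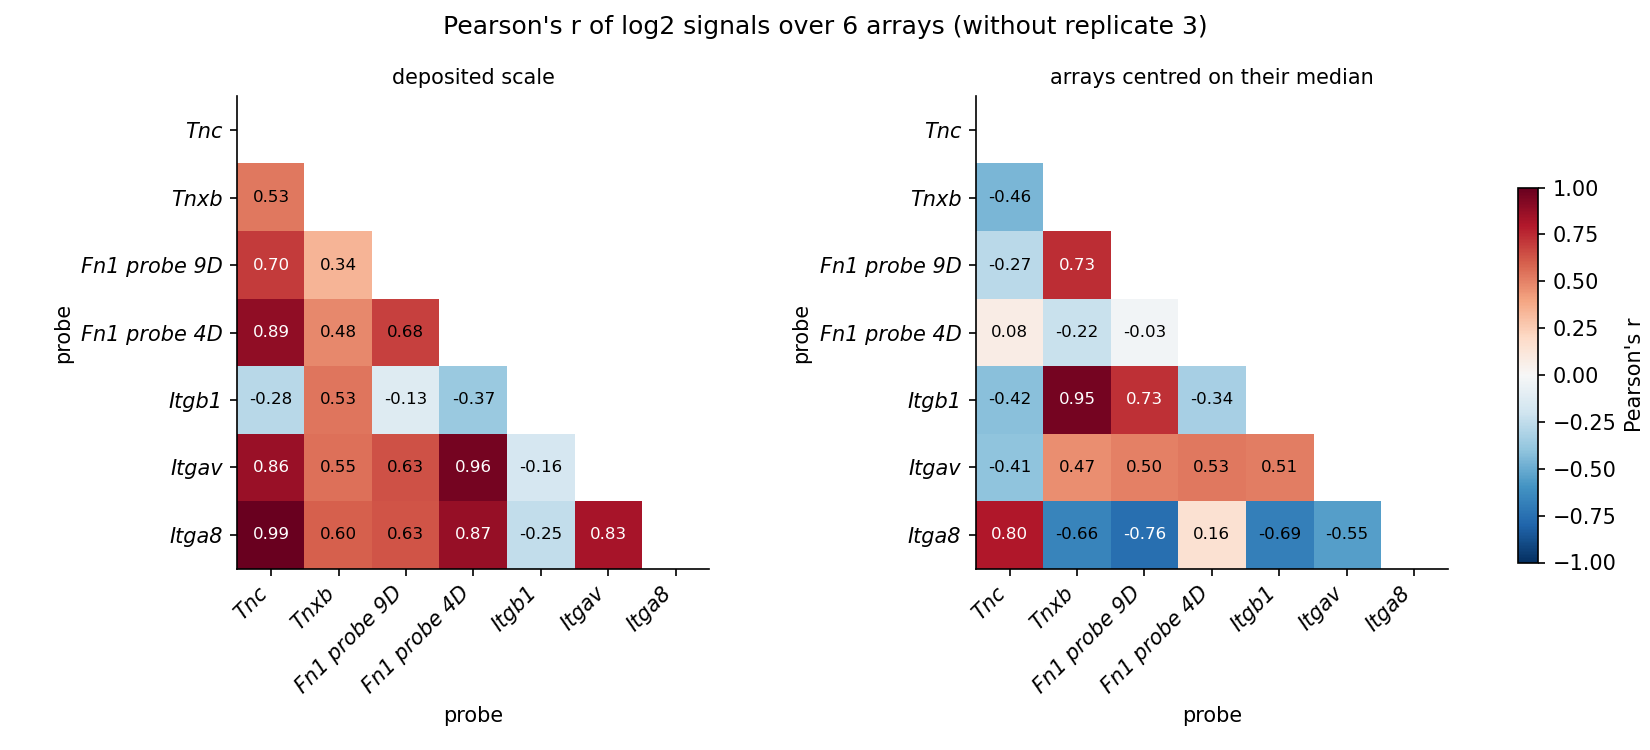
Pearson's r for each pair of the 7 probes over 6 arrays, on the deposited scale (left) and with each array centred on its median (right). Colour runs from -1 (blue) to 1 (red). On the left, 16 of 21 pairs are positive, and all 5 negative pairs hold Itgb1, with Tnc, Itgav, Itga8 or an Fn1 probe. On the right, 10 of 21 are positive.

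**Figure D4:**
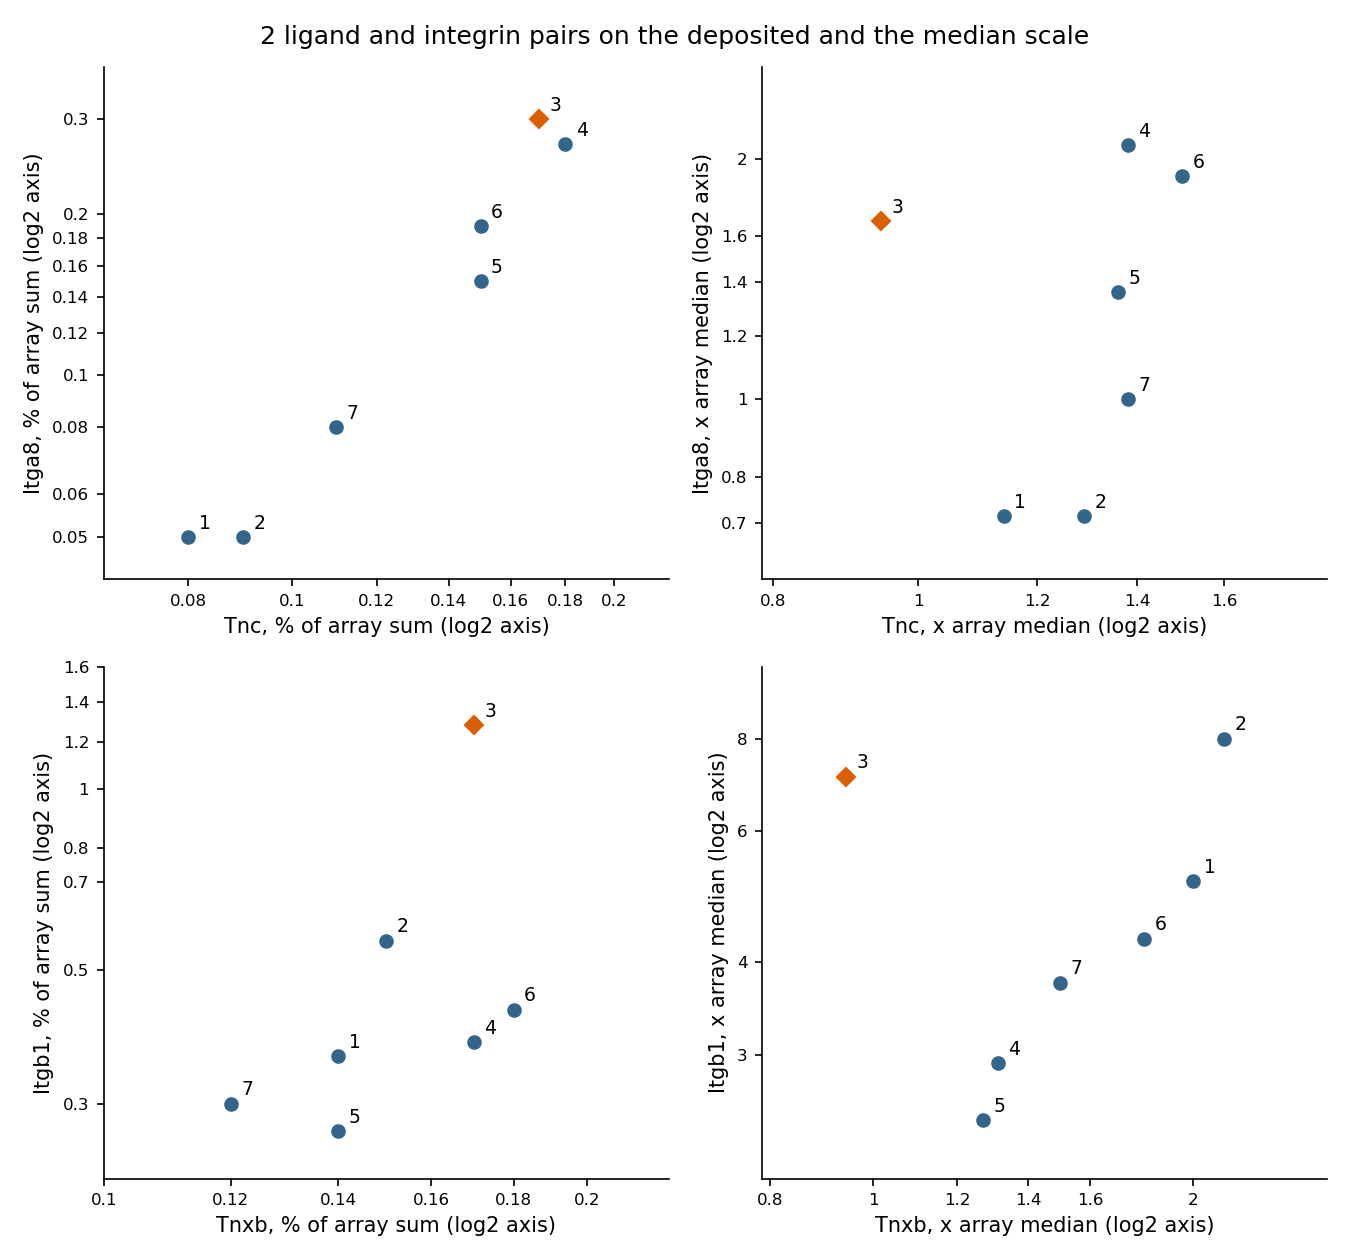
Tnc against Itga8 (top) and Tnxb against Itgb1 (bottom) on each array, in percent of the array sum (left) and as multiples of the array median (right), on log2 axes. Numbers are replicates, and replicate 3 is the orange diamond. The top left and bottom right panels show the arrays in nearly the same order for both probes, except replicate 3 at bottom right.

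Fn1 probe 4D and Itgav had r = 0.96 (exact permutation p = 0.017, adjusted p = 0.175, n = 6) and 0.99 over all 7 arrays (exact permutation p = 0.0024, adjusted p = 0.025). Neither was clear on any array, and after median-centring r was 0.53 (exact permutation p = 0.29). Itgb1 with its partner chain Itga8 had r = -0.25 (exact permutation p = 0.63), and -0.69 after centring (exact permutation p = 0.15). Itgb1 with Itgav had r = -0.16 (exact permutation p = 0.73), 0.51 after centring (exact permutation p = 0.31) and 0.83 with quantile normalization (exact permutation p = 0.042, adjusted p = 0.17). The sign of r between the beta-1 and alpha-V chains therefore changed with the scaling. With 6 arrays only a large r can pass an adjustment over 21 pairs, and with tied readings even a large r may not.

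Other genes of matrix attachment on the array are given beside the shares of all probes, of which 17.0% were clear on all 6 arrays and 57.0% on none of the 7. No probe for a further tenascin was among those named. Of 2 further integrin subunits, Itga2, a collagen receptor chain, carried 0.053% ± 0.018 on the 6 arrays other than replicate 3 (SD, n = 6) and was clear on none. Itgb5, a partner chain of alpha-V, carried 0.140% ± 0.028 (SD, n = 6) and was clear on 2. Of 11 other integrin ligands, among them 8 laminin chains, none was clear on all 6 arrays and 6 were clear on none of the 7, the latter a share near that of all probes. Among them Lamb2 read 0.147% ± 0.054 and Lamc1 0.143% ± 0.024 on the 6 arrays (SD, n = 6), both chains of muscle laminins. In replicate 3 these 11 probes summed to 9.49%, against 0.79% to 1.64% elsewhere, with Lama3 alone at 6.57%.

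Of 13 matrix enzymes and inhibitors, none was clear on all 6 arrays, against 17.0% of all probes, and 11 on no array, against 57.0%. Among them the protease inhibitors Timp2 and Timp3 read 0.177% ± 0.034 and 0.152% ± 0.023 (SD, n = 6), and were clear on 3 and 2 arrays. Tgfb1, a growth factor released from its latent form by alpha-V integrins, read 0.07% to 0.13% on these arrays and was clear on none. Des, the muscle intermediate filament gene and the one adhesion partner of the list on the array, carried 2.39% ± 0.65 and was clear on all 6.

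The probes whose log2 signals followed Itgb1 most closely over the 6 arrays were Fgfr2 (r = 0.91), Igfbp5 (r = 0.87) and Aldoa (r = 0.84), a description without a test. They encode a fibroblast growth factor receptor, an IGF-binding protein and a glycolytic aldolase. Fgfr2 was clear on 4 of 7 arrays, Igfbp5 on 1 and Aldoa on 7. With median-centred arrays the nearest were Fgfr2 (r = 0.97), Aldoa (r = 0.96) and Tnxb (r = 0.95). Over all 7 arrays Igfbp5 had r = 0.97, Fgfr2 r = 0.12 and Aldoa r = -0.83. On the deposited scale the likeness of Igfbp5 was thus also there with replicate 3 included, and those of Fgfr2 and Aldoa were not. Over all 7 median-centred arrays r was 0.47 for Igfbp5, 0.40 for Fgfr2 and -0.29 for Aldoa. Igfbp5 read 0.18% in replicate 3, beside a floor of 0.15%, and 0.12% to 0.15% elsewhere.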

How the data were processed

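Per the labels' protocols, total RNA came from cryosections of the muscle belly, and 4 µg was reverse transcribed with gene-specific primers and radioactive dATP for a 1-channel array. The deposited intensity values of 223 probes on 7 arrays had been scaled by the authors: without the probes for 28S rRNA and 1 unnamed spot, the arrays sum to 99.8% to 100%. No source used here states the scanner, the software or the background treatment. Of the probes, 205 have 1 gene symbol in the platform annotation and 18 none. All 6 genes were found in a RefSeq table by Entrez identifier. The genome build is not given, so no coordinates are printed.

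Replicates are numbered in accession order. Log2 signals were analysed as deposited with limma 3.58.1 in R 4.3.3 (an intercept, robust variance trend) and, for pairs, exact permutation in Python 3.11.15, at a threshold of 0.05, both tested on simulated data. A planned description of the ligand proteins was not made. The named genes are the 6 members, the integrins, tenascins and up to 2 brightest probes of each attachment list on the array, and the 3 probes most like each member that is clear on at least 4 arrays. Lama3 and the marker genes with values were named after those values were seen. The members, lists, floor criterion and alternatives were chosen with earlier results of these data known. The number of arrays and the recording steps limit the precision of the intensities.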

Additional observations from a re-analysis of the deposited data

Results flagged for a closer look

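For 3 of the 7 probes, in percent of the array sum, replicate 3 lay so far above the remaining mice that the gap took up most of the whole range. The ratio of gap to range, which is Dixon's, was 0.713 for Itgb1, 0.667 for Fn1 probe 4D and 0.636 for Itgav, against a critical value of 0.568 for 7 samples. Chance alone gives about 1 in 20 for a single probe on arrays of like background. How many of all probes on the array would pass was not counted, so 3 of 7 gives no reading about the list. On the log2 scale the ratios were 0.53, 0.50 and 0.51, and none passed. In replicate 3 Fn1 probe 4D and Itgav read 0.16% and 0.17%, beside a floor of 0.15%, whereas Itgb1 read 8.53 times the floor. On the other arrays the floor was 0.04% to 0.08%, so a probe at the floor is also highest in replicate 3. For Fn1 probe 4D and Itgav the ratio therefore cannot separate the probe from the floor of its array.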

How the results depend on the processing

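The counts of clear probes depended on where the line was drawn. The number of members clear on all 6 arrays was 0 with 5 times the floor or with the 25th percentile as the floor, where Itgb1 did not pass in replicate 5, nor with 5 times the floor in replicate 4. The number clear on no array was 2, in place of 4, with 2 times the floor, with the 5th percentile as the floor, or with 3 times the floor itself counted. It was 6 with 5 times the floor and 5 with the 25th percentile. Of all 223 probes, 127 were clear on no array under the main rule. With 2 times the floor, the 5th percentile or 3 times the floor itself counted, that number was 88, 117 or 119. With 5 times the floor it was 156, and with the 25th percentile 136. Clear on all 6 arrays were 38 under the main rule, and 49, 38, 39, 28 and 36 under the alternatives in that order. The counts over all probes thus also depended on the line. The median member over the floor ran from 0.93 to 1.16 (log2) when each replicate was left out. Limma called 0 members under each alternative. The median SD of the members, 0.53, was 0.35 with a pseudocount of 0.05% and 0.30 with median-centring and replicate 3 left out, and 0.38 to 0.58 when each replicate was left out. Without dim probes 6 members were tested, since Fn1 probe 4D was left out. Of 21 pairs, 0 passed as deposited, 1 with median-centring (Tnxb with Itgb1), 1 with quantile normalization (Tnxb with Itgb1, r = 0.97) and 2 over all 7 arrays. When each replicate was left out of the 6, which leaves 5 arrays, 0 passed. With 5 arrays there are 120 pairings, too few for 1 pair alone to pass an adjustment over 21, so this 0 shows little. The causes were not tested. No paired analysis was possible because the series holds 1 group.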
